A study of Mus musculus with 4 samples.

Results

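C-type lectin receptors are surface proteins with which macrophages and dendritic cells bind sugars, glycolipids and parts of dead cells. The 10 genes described here are Clec7a, Clec4a1, Clec4a3, Clec4b1, Clec4d, Clec4e, Clec4n, Clec9a, Mgl2 and Mrc1. They were chosen by name as receptors of this family, with earlier results of these data known. Each was found by its Ensembl identifier, so that they make up 10 of the 52550 gene entries counted. All 10 passed the low-count filter, as did 17 of 34 other C-type lectin domain genes. Shares of the 10 set beside those of all tested genes below therefore describe this list and test nothing.

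Poly(A)-enriched RNA was sequenced from macrophages grown from the bone marrow of C57BL/6 mice aged 8 to 10 weeks. The mice were wild type or miR-7 deficient, and the cells were left unstimulated or given lipopolysaccharide (LPS, a component of the outer membrane of bacteria that macrophages sense through a Toll-like receptor), 100 ng/mL over 12 h, which makes 4 groups with 1 library each. The purpose stated for the series was to find protein-coding genes that miR-7 lowers. The sources used here give neither the allele or promoter behind the deficiency, nor the sex of the mice, nor the number of animals or cultures behind a library.

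Several of these receptors signal through an immunoreceptor tyrosine-based activation motif or a shorter form of it, either their own or that of the adaptor Fcer1g, to the kinase Syk and on to Card9, Bcl10 and Malt1, which activate NF-κB. Some relatives, such as Clec4a2, carry an inhibitory motif instead, and Mrc1 and Mgl2 take up glycoproteins by endocytosis without such a motif. In macrophages, Clec4e is a known inflammatory gene, whereas Mrc1 and Mgl2 are used as markers of alternative activation by interleukin 4.

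The members lie on 3 chromosomes, with 8 of the 10 on chromosome 6. In the GENCODE M21 annotation of GRCm38, Clec4a1 starts the first group at chr6:122921848-122934619 and Clec4e ends it at chr6:123281789-123289870, 360 kb away (distance between starts). Clec4a3, Clec4b1, Clec4n and Clec4d lie between them. Clec9a at chr6:129408862-129424763 and Clec7a at chr6:129461591-129472779 lie in a second group about 6487 kb from Clec4a1. Mgl2 lies at chr11:70130329-70137550 and Mrc1 at chr2:14229392-14332057. Clec4e and Clec7a are on the minus strand and the other 8 on the plus strand.

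The sequence just upstream of the transcription start is shown for 4 members that moved with LPS, the 2 that rose (Clec4e, Clec4d) and a pair that fell (Clec4b1, Mrc1). Each line is the 200 bases before both the RefSeq and the GENCODE start, from RefSeq on GRCm38.p6, written 5′ to 3′ on the strand of the gene. Capitals mark the core GAGGAA, known as a binding sequence of the macrophage factor PU.1, and TTNNGNAA, a C/EBP sequence, both searched on either strand. No match of one overlapped a match of the other, and the last capitals but one of Mrc1 are 2 C/EBP matches that overlap. The windows are chr6:123289872-123290071 (minus strand) for Clec4e, chr6:123261907-123262106 (plus) for Clec4d, chr6:123049762-123049961 (plus) for Clec4b1 and chr2:14229192-14229391 (plus) for Mrc1.
Clec4e: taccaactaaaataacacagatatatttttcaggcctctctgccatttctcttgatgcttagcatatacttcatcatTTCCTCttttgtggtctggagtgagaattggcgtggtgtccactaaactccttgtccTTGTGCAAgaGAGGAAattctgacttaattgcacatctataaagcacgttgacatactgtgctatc
Clec4d: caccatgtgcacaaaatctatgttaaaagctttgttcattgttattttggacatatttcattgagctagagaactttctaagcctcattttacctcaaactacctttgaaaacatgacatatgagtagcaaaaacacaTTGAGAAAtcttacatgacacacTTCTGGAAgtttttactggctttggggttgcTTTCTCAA
Clec4b1: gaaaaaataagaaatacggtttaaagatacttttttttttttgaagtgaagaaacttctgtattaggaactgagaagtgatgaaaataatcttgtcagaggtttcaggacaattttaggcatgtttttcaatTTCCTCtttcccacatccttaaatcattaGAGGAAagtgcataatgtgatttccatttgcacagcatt
Mrc1: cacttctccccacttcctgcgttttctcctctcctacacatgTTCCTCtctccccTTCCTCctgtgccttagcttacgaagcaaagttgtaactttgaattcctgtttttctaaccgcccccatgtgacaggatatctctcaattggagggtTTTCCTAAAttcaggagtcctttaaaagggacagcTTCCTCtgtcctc

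GAGGAA matched 2 times in the window of Clec4e, 2 times in that of Clec4b1, 3 times in that of Mrc1 and 0 times in that of Clec4d. Single matches stood in the windows of Clec7a, Clec4a1 and Mgl2, so that 6 of the 9 members with a RefSeq window held it, and 18.9% of the 27025 RefSeq windows of that length did. TTNNGNAA matched 3 times for Clec4d, 1 time for Clec4e, 1 time for Mgl2 and 2 times for Mrc1, and 30.1% of all windows held it. The NF-κB sequence, GGG and TTTCC with 2 bases between them (1.15% of all windows), the AP-1 sequence TGANTCA (5.55%) and the STAT sequence TTCNNNGAA (5.62%) matched 0 times in the 9 windows. The interferon element, GAAA and GAAA with 2 bases between them (2.33% of all windows), matched 1 time, for Clec4b1, and the STAT6 sequence, TTC and GAA with 4 bases between them (4.51%), 1 time, for Clec7a. The windows of Clec4a3 and Clec9a matched none of the 7. Clec4n was not matched. A match describes letters in a window and not a bound site.

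The microRNA named in the label of the deficient mice, miR-7, has the mature forms below (RefSeq, GRCm38.p6). They are shown because their seed, bases 2 to 8 in capitals, is the stretch that pairs with target transcripts. The seed is the same in both.
mmu-miR-7a-5p: uGGAAGACuagugauuuuguugu
mmu-miR-7b-5p: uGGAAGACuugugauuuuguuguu
The seed's complement, GTCTTCC, was found in 0 of the 10 members' longest annotated 3′ untranslated regions, which ran from 18 bases in Clec4b1 to 2405 in Clec9a. It was found in 2720 of 21173 genes (12.8%). The counts do not measure mature miR-7. The entry Mir7-1 held 15, 10, 7 and 7 counts (wild-type unstimulated, wild-type with LPS, deficient unstimulated, deficient with LPS), and Mir7-2 and Mir7b held 0 in all 4 libraries, so that these counts do not check the deficiency.

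Total counts ran from 33937823 to 42074624 per library, and 12730 genes were tested. In bulk RNA, fewer cells of a type and less RNA per cell cannot be told apart. Of 10 macrophage markers, 9 or 10 reached 1 CPM (the usual depth-scaled count, here with TMM scaling between libraries) in each library. Markers of B cells, T or NK cells and erythroid cells stayed below 1 CPM throughout. In the wild-type unstimulated library, 37 genes strongly raised by LPS in the deficient pair stood at a median of 1.71% of their level in the wild-type LPS library, against 0.583% in the deficient pair. The genes had been chosen on the deficient pair and on their level in both LPS libraries, which by itself keeps the second value low.

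Each group has 1 library, so the test was an additive model of genotype and LPS in edgeR's quasi-likelihood framework, in which the 2 LPS pairs stand in for replicates (1 residual degree of freedom). A gene was called at a Benjamini-Hochberg adjusted p under 0.05 over the 12730 genes. The residual of a gene is the difference between its LPS ratios in the 2 genotypes, pooled with other genes (5.178 prior degrees of freedom). Its p-values therefore treat that difference as error, whether it is technical or a true dependence on genotype. Ratios of single libraries are given with 95% Clopper-Pearson intervals, which cover counting error only, and no test applies to them. Below, the 4 values of a gene are always CPM in the order wild-type unstimulated, wild-type with LPS, deficient unstimulated, deficient with LPS.

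With LPS, Clec4e and Clec4d rose and Clec7a, Clec4a3, Clec4b1, Clec9a and Mrc1 fell, while Clec4n, Clec4a1 and Mgl2 did not pass the test. That is 2 of the 10 higher, where 18.0% of all tested genes were called higher, and 5 lower, where 16.3% were called lower. The median fitted LPS effect of the 10 was -0.82 on the log2 scale, against -0.04 over all tested genes. Clec4b1, the lowest of the 10, does not set that median. With miR-7 deficiency, 0 of the 10 were called.

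**Figure D1:**
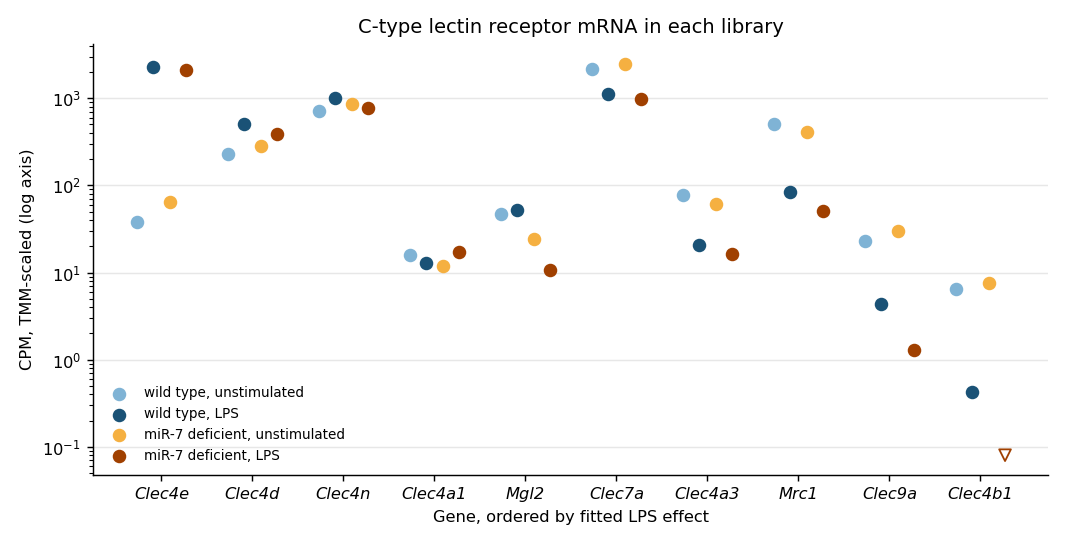
CPM (TMM-scaled, log axis) of the 10 genes in each of the 4 libraries, ordered by the fitted LPS effect, 1 point a library. Clec4e stood at 38.0 and 63.7 CPM without LPS and at 2285 and 2132 with it, and Clec4b1 fell from 6.43 and 7.65 CPM to 0.422 and 0.

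The genes that couple to Fcer1g and lie side by side at the end of the first group moved to different extents. Clec4e (Mincle) binds mycobacterial trehalose glycolipids and a nuclear protein released from dead cells. Its values were 38.0, 2285, 63.7 and 2132 CPM, from 1776, 75753, 2500 and 79849 counts. Both LPS libraries lay far above both unstimulated ones, and the lowest of all was the wild-type unstimulated library. The fitted LPS effect was 5.49 ± 0.32 (SE, log2; edgeR adjusted p = 0.000193). The LPS library was 60.2-fold higher in the wild-type pair (log2 5.91, interval 5.84 to 5.98) and 33.5-fold higher in the deficient pair (log2 5.06, interval 5.01 to 5.12). The call held in all 12 alternatives run.

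The wild-type unstimulated value of Clec4e moved most of the 10 when the trace of LPS-induced transcripts in that library was removed. With 1.71% of the wild-type LPS counts taken from it, its 1776 counts became 432 (9.36 CPM) and the wild-type LPS ratio became 245-fold (log2 7.94). The deficient unstimulated library then stood 6.78-fold above wild type (log2 2.76) in place of a log2 ratio of 0.75. Nothing was taken from the deficient unstimulated library, so the subtraction widens this ratio by construction. As measured, the unstimulated level of Clec4e was 0.0166 of the LPS level in wild type and 0.0299 in deficient cells. Where the LPS-induced transcripts in the wild-type unstimulated library came from was not tested.

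Clec4d, also called MCL, pairs with Clec4e and binds the same kind of glycolipid. It stood at 231, 509, 285 and 385 CPM, so that the LPS libraries were the upper pair and the wild-type LPS library the highest. The fitted effect was 0.79 ± 0.24 (edgeR adjusted p = 0.0464), with a 2.21-fold higher level in the wild-type pair and 1.35-fold in the deficient pair. The call was lost in 7 of the 12 alternatives. With total counts as library size the effect was 0.38 (adjusted p = 0.221). Left out in turn, the wild-type unstimulated, wild-type LPS and deficient unstimulated libraries gave effects of 0.66, 0.59 and 0.93. The call was lost in each of these fits, which also had LPS as the only factor. It was also lost with no filter (edgeR adjusted p = 0.0713) and with the share of LPS counts removed (0.0620). With all libraries and LPS as the only factor the adjusted p was 0.0537. Over the 12 alternatives the adjusted p ran from 0.00574 to 0.221.

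Clec4n, known as Dectin-2, binds fungal mannans. Its values were 709, 1011, 863 and 780 CPM, and the LPS libraries did not stand apart from the unstimulated ones. The fitted effect was 0.18 ± 0.24 (edgeR adjusted p = 0.589). The log2 ratio was 0.51 in the wild-type pair (interval 0.49 to 0.53) and -0.14 in the deficient pair (interval -0.17 to -0.12).

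Clec7a, the β-glucan receptor Dectin-1 with an activating motif of its own, was measured at 2157, 1128, 2502 and 989 CPM. Both unstimulated libraries lay above both LPS libraries. It fell by 1.14 ± 0.22 on the log2 scale (edgeR adjusted p = 0.00980), 1.91-fold lower in the wild-type pair and 2.53-fold lower in the deficient pair. The call was lost without the wild-type LPS library (effect -1.22) and without the deficient LPS library (-1.02), in fits with LPS as the only factor. It held in the other 10 alternatives, with an adjusted p down to 4.54e-06 (DESeq2 Wald test). GENCODE M21 lists this gene as a polymorphic pseudogene.

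Clec9a binds actin filaments exposed on dead cells and is best known from type 1 conventional dendritic cells. It stood at 23.1, 4.34, 29.8 and 1.31 CPM, with the 2 LPS libraries lowest. The LPS effect was -3.40 ± 0.52 (edgeR adjusted p = 0.00434), 5.31-fold lower in the wild-type pair and 22.8-fold lower in the deficient pair. The call was lost without the wild-type unstimulated library (effect -3.38) and without the deficient unstimulated library (-3.06), in fits with LPS as the only factor. It held in the other 9 alternatives that tested it, with an adjusted p down to 2.05e-09 (DESeq2 Wald test). Clec9a shares 184 exonic bases with Clec1b, which stood at 18.1, 3.71, 24.4 and 5.55 CPM and fell by 2.21 ± 0.24 (adjusted p = 0.00123). How much of the reads of either gene came from the other was not tested.

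Dendritic cell markers were followed beside Clec9a. Of the 10 markers of type 1 conventional dendritic cells, 7 reached 1 CPM in each library. Without Clec9a their summed level was 319, 436, 239 and 469 CPM, higher in each LPS library than in its unstimulated partner. Without Tlr3, which rose from 10.7 and 10.6 to 133 and 109 CPM, it was 308, 303, 229 and 360 CPM, so that the wild-type pair no longer differed in that direction. Batf3 (-3.70 ± 0.38, edgeR adjusted p = 0.00106) and Cadm1 (-1.29 ± 0.31, adjusted p = 0.0210) fell with LPS, as Clec9a did. Tlr3 (3.51 ± 0.21, adjusted p = 0.000208) and Xcr1 (9.52 ± 1.11, adjusted p = 0.00287) rose. Irf8 (0.69), Zbtb46 (1.28) and Wdfy4 (0.06) did not pass (adjusted p = 0.0638, 0.0639 and 0.847). Irf8 (120, 151, 98.7 and 205 CPM) and Wdfy4 (166, 140, 109 and 142 CPM) made up most of both sums. Flt3 had 0 counts in every library, and Xcr1 stood at 0, 2.53, 0 and 2.11 CPM. The part of such cells in the Clec9a result was not tested.

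Clec4b1 (DCAR1), which couples to Fcer1g and binds mycobacterial phosphatidylinositol mannosides, was the least abundant member with LPS. It stood at 6.43, 0.422, 7.65 and 0 CPM, from 301, 14, 300 and 0 counts. Both LPS libraries were near or at zero. The call was at an edgeR adjusted p of 0.0103 and held in the 9 alternatives that tested it. The wild-type pair was 15.2-fold lower with LPS (log2 -3.93, interval -4.82 to -3.16). The deficient pair was at least 95.5-fold lower, taking 3 counts as the limit that a count of 0 allows. Of its 50-base exonic windows, 8.68% occur in another gene, first Clec4a2, which stood at 122.9, 17.8, 136.3 and 17.1 CPM and also fell (-2.89 ± 0.20, adjusted p = 0.000287).

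Clec4a3 and Clec4a1 belong with Clec4a2 to the dendritic cell immunoreceptor subfamily. Clec4a3 stood at 77.4, 20.6, 61.2 and 16.3 CPM. It fell by 1.91 ± 0.20 (edgeR adjusted p = 0.00114), and each pair was 3.75-fold lower with LPS, the closest match between genotypes among the 10. The call held in all 12 alternatives. Clec4a1, at 15.99, 12.97, 11.85 and 17.30 CPM, had a fitted effect of 0.12 ± 0.28 (edgeR adjusted p = 0.766). Its LPS library was the lower of the wild-type pair and the higher of the deficient pair.

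**Figure D2:**
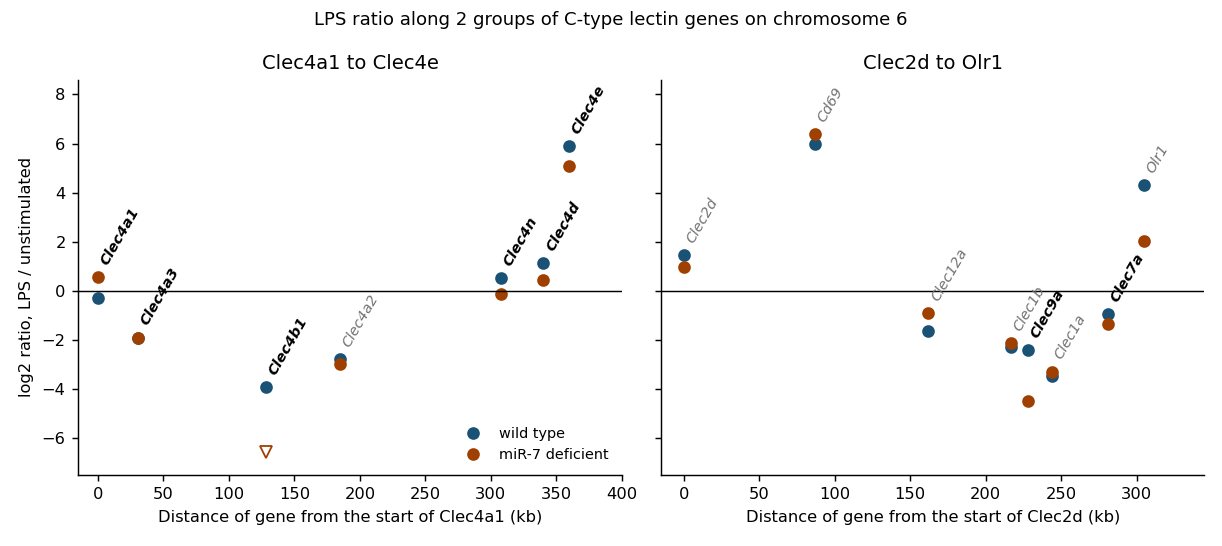
log2 LPS ratio of C-type lectin genes averaging at least 100 counts, in 2 groups on chromosome 6 against the distance of each gene's start from that of the first gene (kb), with 1 point a genotype, members in bold and an open triangle where Clec4b1 is at least 95.5-fold lower. Clec4d and Clec4e lie on the high side at the far end of the first group, Clec4a3, Clec4b1 and Clec4a2 on the low side nearer its start.

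Along the first group, genes that fell and genes that rose lay at different positions. Clec4a1, the first gene, did not pass the test. Clec4a3 and Clec4b1, 30.7 and 128 kb from Clec4a1, and Clec4a2, 185 kb from it, fell, whereas Clec4d and Clec4e, 340 and 360 kb from it, rose, with Clec4n at 308 kb not passing the test. The 2 genes that rose are neighbours, the call of Clec4d being the one lost in 7 of 12 alternatives, and the order along the chromosome was seen after the values were known and has no test.

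Among the endocytic receptors, Mrc1, the mannose receptor CD206, stood at 506, 83.4, 405 and 50.4 CPM, with both LPS libraries far below both unstimulated ones. It fell by 2.80 ± 0.21 (edgeR adjusted p = 0.000388), 6.06-fold lower in the wild-type pair (log2 -2.60, interval -2.66 to -2.54) and 8.04-fold lower in the deficient pair (log2 -3.01, interval -3.08 to -2.94). The call held in all 12 alternatives.

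Mgl2, the galactose-type lectin CD301b, stood at 47.2, 52.5, 24.1 and 10.6 CPM. Both deficient libraries lay below both wild-type ones. The fitted LPS effect was -0.50 ± 0.34 (edgeR adjusted p = 0.304). The wild-type pair had a log2 LPS ratio of 0.15 (interval 0.06 to 0.24), and the deficient pair was 2.27-fold lower with LPS (log2 -1.18, interval -1.35 to -1.01). Of its 50-base windows, 13.1% occur in another gene, first Clec10a, which stood at 4.25, 0.694, 3.16 and 0.481 CPM.

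Levels of different members are compared here only per kilobase of exon, whereas the sums of marker genes are in CPM, not corrected for length. Clec7a made up 49.4% of the summed level of the 10 genes in the wild-type unstimulated library and 50.05% in the deficient unstimulated one, with Clec4n next at 30.2% and 32.1%. With LPS, Clec7a made up 21.6% in wild type and 23.0% in deficient cells, and Clec4n was the highest at 35.9% and 33.7%. Clec4e came second with LPS at 23.2% and 26.3%, having stood ninth and sixth without it. Clec4d held 8.72% and 9.42% without LPS and 16.1% and 14.8% with it. The summed level itself was 1655, 1981, 1895 and 1631 CPM per kb, so that with TMM scaling it was higher with LPS in wild type (log2 ratio 0.26) and lower with LPS in deficient cells (-0.22). The wild-type direction turned with libraries scaled by total counts, to a log2 ratio of -0.18, and the deficient ratio was then -0.59.

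**Figure D3:**
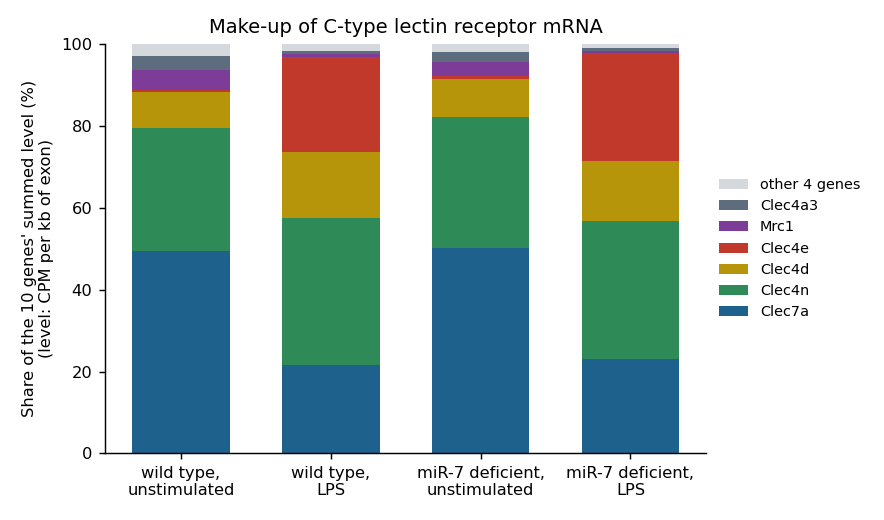
Share (%) of each gene in the summed level (CPM per kb of exon) of the 10 receptors, 1 bar a library. Clec7a holds 49.4% and 50.05% of the bars without LPS and 21.6% and 23.0% of those with it, and Clec4e holds 23.2% and 26.3% of the latter.

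In that order of levels, some neighbours had intervals that overlap. These were Clec4b1, Clec4e and Clec9a in the wild-type unstimulated library (8.206, 7.646 and 7.004 CPM per kb), Mgl2, Clec4b1 and Clec9a in the deficient unstimulated library, and Clec4a3 and Clec4a1 in the deficient LPS library (12.3 and 11.1 CPM per kb). The order also depends on the length used. In the wild-type LPS library Clec4e stood at 460 CPM per kb and Clec7a at 427, and with the longest transcript as length Clec7a (495) stood above Clec4e (476). In the deficient unstimulated library Clec4e (12.8) stood above Mgl2 (11.5), and with the longest transcript Mgl2 (14.7) stood above Clec4e (13.3).

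Between genotypes, 0 of the 10 were called by edgeR's quasi-likelihood test, where 0.385% of all tested genes were called higher and 0.165% lower in the deficient cells. The median fitted genotype effect was -0.19 (log2), against 0.02 over all tested genes. At an unadjusted p under 0.05 there were 2 members, Mgl2 and Mrc1, and the DESeq2 Wald test called 1, Mgl2. Mgl2 had an effect of -1.63 ± 0.35 (unadjusted p = 0.00320, adjusted p = 0.216; DESeq2 -1.66, adjusted p = 0.00178). Over the 12 alternatives its adjusted p ran from 0.00178 to 0.99999. The deficient library was 1.96-fold lower without LPS (log2 -0.97, interval -1.08 to -0.86) and 4.94-fold lower with it (log2 -2.31, interval -2.47 to -2.15). Mrc1 had an effect of -0.52 ± 0.20 (unadjusted p = 0.0400, adjusted p = 0.606), with log2 ratios of -0.32 without and -0.73 with LPS.

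The other 8 had fitted genotype effects between -0.85 (Clec4b1) and 0.32 (Clec4e), with adjusted p from 0.851 to 0.997. Without LPS, 0 of the 10 genotype ratios lay beyond 2-fold with their whole interval (2.82% of all tested genes higher, 1.41% lower). With LPS, 3 lay beyond 2-fold lower in the deficient library (3.04% of all tested genes) and 0 higher (2.58%). In both conditions at once, 0 of the 10 were beyond 2-fold lower (0.416% of all tested genes). The 3 were Mgl2, Clec9a (3.32-fold lower, log2 -1.73, interval -2.23 to -1.25) and Clec4b1 (at least 5.27-fold lower). Markers of other myeloid cells were read beside Mgl2. The markers of type 2 conventional dendritic cells, without Mgl2, summed to 1668, 1486, 1808 and 1583 CPM, with Flt3 at 0 in every library and Cd209a at 0.171, 0, 0.561 and 0.107 CPM. The 6 monocyte markers summed to 2620, 2436, 767 and 620 CPM, mostly Chil3, and stood lower in both deficient libraries. Their part in the Mgl2 ratios was not tested. Any difference between the mice or cultures behind the libraries cannot be told apart from genotype.

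**Figure D4:**
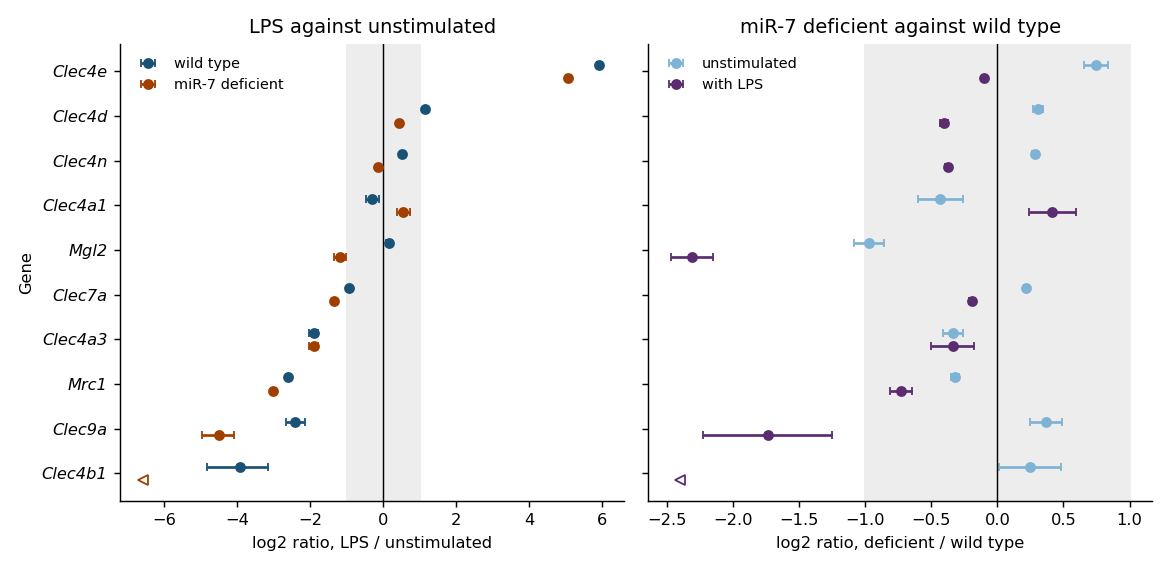
log2 LPS ratios in each genotype (left) and log2 genotype ratios in each condition (right) of the 10 genes, with 95% intervals for counting error, the range within 2-fold shaded and open triangles at the limits for Clec4b1 (at least 95.5-fold and 5.27-fold lower). Mgl2 stands at -0.97 without and -2.31 with LPS in the right panel, and 0 of the 10 genes were called for genotype.

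The response to LPS was then set side by side between the genotypes. In wild type, 2 members were beyond 2-fold higher (14.8% of all tested genes) and 4 lower (13.3%), and in deficient cells 1 was higher (12.5%) and 6 lower (11.8%). The difference of the log2 LPS ratios, deficient minus wild type, had an interval wholly below 0 for 8 of the 10 (33.0% of all tested genes) and wholly above 0 for 1, Clec4a1 (31.5%). Clec4a3, at 0.00 (interval -0.18 to 0.17), was the remaining one. For 3 members the difference lay beyond 2-fold lower, where 3.82% of all tested genes did, and for 0 beyond 2-fold higher (2.26%). The 3 were Clec4b1 (-5.28, interval -9.36 to -1.21, or -2.35 with 5 counts added in place of 0.5), Clec9a (-2.09, interval -2.57 to -1.61) and Mgl2 (-1.33, interval -1.53 to -1.14).

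Clec4e, Clec4d and Clec4n, the 3 neighbours, had differences of -0.85 (interval -0.94 to -0.76), -0.71 (interval -0.76 to -0.66) and -0.66 (interval -0.69 to -0.62). In all 3 the deficient library was the higher one without LPS and the lower one with LPS, with log2 genotype ratios of 0.75 and -0.10, 0.31 and -0.40, and 0.28 and -0.37. The same order held for Clec7a (0.21 and -0.19), Clec9a (0.37 and -1.73) and Clec4b1. Clec4b1 had a ratio of 0.25 without LPS (interval 0.01 to 0.48) and was at least 5.27-fold lower with it. Its interval without LPS included no change with DESeq2 size factors (-0.02 to 0.45) and with the LPS share removed (-0.01 to 0.46). The share of all tested genes with this order was not counted. With the LPS share removed from the wild-type unstimulated library alone, the difference for Clec4e was -2.86. Mrc1 had a difference of -0.41 (interval -0.50 to -0.32) and Clec4a1 of 0.85 (interval 0.60 to 1.09). With 1 library a group these differences have no replicate check.

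LPS ratios of opposite sign in the 2 genotypes, each with an interval that excludes no change, were found for Clec4a1, Clec4n and Mgl2, 3 of the 10, and for 8.37% of all tested genes. With libraries scaled by total counts, which shifts the median log2 LPS ratio over all tested genes (-0.44 for the wild-type pair, -0.38 for the deficient pair), 1 member, Clec4n, met both conditions. Clec4a1 then still had ratios of opposite sign (-0.74 and 0.17), but its interval in the deficient pair included no change, and both ratios of Mgl2 were below 0.

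The rest of the pathway was read from lists of genes. For comparison with each list, 18.0% of all tested genes were called higher with LPS and 16.3% lower, with a median of -0.04. With genotype, 0.385% of all tested genes were called higher and 0.165% lower. Of 34 other C-type lectin domain genes, 17 were tested, 6 rose with LPS, 9 fell and 2 did not pass, with a median of -1.28. Cd69, an early activation marker of leukocytes, rose from 3.76 and 3.87 to 238 and 326 CPM (6.19 ± 0.25, edgeR adjusted p = 0.000173). Klrk1, the activating receptor NKG2D, rose from 0.705 and 0.714 to 20.4 and 19.3 CPM (4.80 ± 0.30). Olr1, the receptor for oxidised low-density lipoprotein, stood at 26.1, 518, 78.3 and 318 CPM and rose (3.16 ± 0.56, adjusted p = 0.00732). Cd93 fell from 513 and 353 to 46.0 and 26.4 CPM (-3.61 ± 0.21). With genotype, 0 of the 17 were called.

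Of 26 genes of signalling downstream of these receptors, all tested, 13 rose with LPS, 6 fell and 7 did not pass, with a median of 0.68. Syk, the kinase that binds the activating motif, stood at 468, 1166, 551 and 1173 CPM and rose (1.20 ± 0.20, edgeR adjusted p = 0.00613). Malt1, the protease of the Card9 complex, stood at 231, 1331, 300 and 1008 CPM (2.14 ± 0.26, adjusted p = 0.00185), and Src rose too (2.48 ± 0.20). Card9 itself fell (-0.84 ± 0.24, edgeR adjusted p = 0.0411), though it shares 87 exonic bases with another gene. Bcl10 did not pass (0.21, adjusted p = 0.530), and the adaptor Fcer1g rose (1.05 ± 0.20, adjusted p = 0.00883). Nfatc2, a calcium-dependent transcription factor, fell (-3.36 ± 0.63, adjusted p = 0.00877). With genotype, 0 of the 26 were called.

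Of 11 inhibitors of this signalling, 4 rose, 1 fell and 6 did not pass, with a median of 0.13. Ptpn6, the phosphatase SHP-1, stood at 217, 306, 203 and 426 CPM and rose (0.78 ± 0.22, edgeR adjusted p = 0.0365), though it shares 195 exonic bases with another gene. Socs1, a feedback inhibitor of cytokine signalling, had the largest LPS change of the 11 and rose from 4.79 and 3.47 to 141 and 189 CPM (5.32 ± 0.30, adjusted p = 0.000186). Dok2 was the gene that fell (-2.19, adjusted p = 0.00106). The ubiquitin ligase Cbl, at 204, 247, 229 and 226 CPM, did not pass (adjusted p = 0.643).

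Of 16 transcription factors and cytokine receptors known to control C-type lectin genes, 3 rose, 5 fell and 8 did not pass, with a median of 0.01. The share that rose was near the 18.0% of all tested genes called higher, and 16.3% of all were called lower. Pparg, a nuclear receptor of alternatively activated macrophages, fell from 43.5 and 39.5 to 1.33 and 0.988 CPM (-5.17 ± 0.26, edgeR adjusted p = 0.000173). Batf3, needed for type 1 conventional dendritic cells, fell from 10.1 and 7.65 to 0.844 and 0.534 CPM (-3.70 ± 0.38). The receptor chains for granulocyte-macrophage colony-stimulating factor, Csf2rb at 2541, 2602, 2306 and 2307 CPM and Csf2ra at 683, 674, 595 and 771 CPM, did not pass (adjusted p = 0.955 and 0.551).

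Of 15 alternative activation genes outside the 10, 13 were tested, 6 rose with LPS, 2 fell and 5 did not pass, with a median of 0.50, while Mrc1 fell and Mgl2 did not pass. Among the 6 were the chemokine Ccl22 (26.3, 980, 66.8 and 1696 CPM) and the transglutaminase Tgm2 (182, 1614, 212 and 1122 CPM, adjusted p = 0.000746), and the kinase Matk was one that fell (71.0, 1.81, 67.4 and 1.52 CPM). With genotype, 2 of the 13 were called lower and 0 higher. Chil3, a chitinase-like protein, stood at 2582, 2327, 727 and 465 CPM (-2.08, edgeR adjusted p = 0.0256). Arg1, the other one and named here after its values were seen, had 48, 377, 0 and 4 counts (adjusted p = 0.0185).

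The genes whose pattern over the 4 libraries was nearest that of Clec4e, by Euclidean distance of centred log2(CPM + 1) among 7876 genes, were Fpr2 (0.223), Acod1 (0.280) and Fpr1 (0.294). Those nearest Clec4b1 were Gpr183 (0.113), Phlda3 (0.243) and Aph1c (0.245). Clec4b1 stood below 1 CPM with LPS, so that the 1 added makes its fall smaller in this distance. The fitted LPS effects of Gpr183, Phlda3 and Aph1c were -3.28, -3.22 and -2.84, against -5.37 for Clec4b1. The libraries are the same 4 for all genes, and no test belongs to these distances.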

How the data were processed

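Per the series design text, the tools were Casava v1.8.2, Cutadapt, TopHat v2.0.13 with Bowtie2 for alignment to the mouse genome, and Partek for exon annotation. The submitters' processing notes name HTSeq and the build mm8. Values are whole read counts per gene as the authors deposited them, 1 file a library, not normalized. The annotation release, the strand setting and the handling of multimapping reads: not given in the sources used here. Identifiers without version were matched to GENCODE M21 on GRCm38 for symbols (52403 of 52550, 99.7%), and no line lacked a gene.

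Genes with at least 1 CPM in at least 2 libraries were tested with edgeR 4.0.16 (R 4.3.3, TMM factors 1.148, 0.8463, 1.156 and 0.8902, biological coefficient of variation 0.2465) in the model genotype + LPS. The SE is the size of the log2 change over the square root of F. Differences of LPS ratios have a normal 95% interval after adding 0.5 counts. The scripts were tested on simulated data. Alternatives were other scalings, filters and models, DESeq2 1.42.0, genes sharing exonic bases left out, a share of LPS counts removed, another length, and each library left out. With a library left out, LPS or genotype was the only factor in the fit, so that the model changed along with the libraries.

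The members and lists were chosen with earlier results of these data known. All 10 members are named, and from each list at most 4 tested genes: the 2 with the highest mean CPM and the 2 with the largest LPS change among called genes. Named outside this rule, after their values were seen, were Arg1, Card9, Bcl10, Fcer1g and single marker genes. So were Clec1b, Clec4a2 and Clec10a, which share sequence with members. The 3 nearest genes needed a mean CPM of 10 or more.

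Marker lists beside those in the report gave these counts of genes at 1 CPM or more, in the same order of libraries: type 2 conventional dendritic cell 6 of 10 in each, plasmacytoid dendritic cell 2, 3, 2 and 3 of 6, neutrophil 3, 3, 3 and 4 of 11, monocyte 3, 4, 4 and 5 of 6, mast cell or basophil 2, 2, 1 and 1 of 6, and fibroblast 0, 1, 0 and 0. In the type 2 list without Mgl2, Itgax made up most of the sum (1623, 1295, 1759 and 1216 CPM).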

Additional observations from a re-analysis of the deposited data

Results flagged for a closer look

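For 3 members the ratio with LPS pointed one way in wild-type cells and the other way in miR-7 deficient cells, in the only library of each group. The difference was not tested, since each group has 1 library, and intervals cover counting error. For Clec4a1 the log2 LPS ratio was -0.30 in wild type and 0.55 in deficient cells, a difference of 0.85. For Clec4n it was 0.51 and -0.14, a difference of -0.66. For Mgl2 it was 0.15 and -1.18, a difference of -1.33. Under scaling by total counts, Clec4n was the one member of the 10 whose ratios were of opposite sign with both intervals excluding no change; the ratios of Clec4a1 were then -0.74 and 0.17, the second with an interval that included no change.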

How the results depend on the processing

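Replicates could not be paired, because each group has 1 library and the labels give no replicate numbers that groups share. The LPS test itself compared libraries within each genotype. The number of members called higher with LPS, 2, became 1 with total counts as library size, with no filter, with the share of LPS counts removed and with LPS as the only factor, and ranged from 1 to 2 with each library left out, Clec4d being the gene lost. The number called lower, 5, ranged from 3 to 4 with each library left out. For genotype, the number called lower, 0, became 1 with the DESeq2 Wald test. Members beyond 2-fold higher with LPS in wild type became 1 with total counts. Members beyond 2-fold higher in unstimulated deficient cells became 1 (Clec4e) with the share removed, which was taken from the wild-type library alone. Members with LPS ratios of opposite sign, each interval excluding no change, became 1 with total counts. The log2 LPS ratio of the members' summed level per kb in wild type, 0.26, was -0.18 with total counts, an alternative chosen after seeing the data.

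Directions that turned belong to effects that were not called. With total counts the fitted LPS effect was -0.29 for Clec4a1 and -0.23 for Clec4n, the wild-type LPS ratio of Mgl2 was -0.29 and the genotype effect of Clec4a1 was 0.032. With a library left out and LPS as the only factor, the LPS effect ran from -0.11 to 0.37 for Clec4a1 and from -1.73 to 0.58 for Mgl2. The genotype effect of Clec7a was -0.0133 with DESeq2 size factors, -0.0137 with a filter of 10 CPM, -0.0133 with the DESeq2 Wald test and -0.0207 with no filter. With genotype as the only factor it was 0.0096 for Clec4a1, 0.15 for Clec4b1, -0.081 for Clec4e and 0.18 for Clec9a. With a library left out, genotype was the only factor, so that these fits hold unequal numbers of LPS libraries: the effect ran from -0.76 to 0.61 for Clec7a, -0.30 to 0.23 for Clec4a1, -1.62 to 0.89 for Clec4a3, -0.75 to 1.15 for Clec4b1, -0.62 to 0.55 for Clec4d, -4.21 to 4.87 for Clec4e, -0.32 to 0.22 for Clec4n, -3.42 to 1.82 for Clec9a and -2.58 to 1.43 for Mrc1. A lone library left in a group was assumed to vary like the others. Clec4b1 was not tested at 10 CPM or without an unstimulated library, and Clec9a not with overlapping genes left out. Depth limits Clec4b1 (14 and 0 counts with LPS) and Clec9a (49 in deficient cells).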
